A study of Sus scrofa with 32 samples.

Results

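Apolipoprotein D, encoded by APOD (ENSSSCG00000011831), is described here as 1 of the 25322 gene IDs counted in the skeletal muscle of pigs. It was chosen by its ID, and because its measured level separated the breeds in one muscle, so every breed difference of APOD given below is a description and was not tested. RNA was sequenced from a back muscle, longissimus dorsi (LD), and a ham muscle, semimembranosus (S), of 16 unrelated gilts, with 1 library for each muscle of a pig. Of the gilts, 8 belonged to Pulawska (PUL), a native breed of Poland that is kept as a genetic resource, and 8 to Polish Landrace (PL), a white breed used as a maternal line. All animals were females that were kept at one test station on the same feed and were fasted before slaughter. The labels give an age of 180 days for every animal. The study, however, fed the pigs to a set body weight and lists age at slaughter among the traits, so their true ages may have differed. The labels mark the PUL libraries as having a high shear force and the PL libraries a low one, but the study's account of the meat of these breeds goes the other way, so these marks were not used here. The 4 groups are PUL LD, PL LD, PUL S and PL S, with 8 libraries each.

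Apolipoprotein D is a secreted glycoprotein of the lipocalin family, which are small barrel-shaped proteins that carry hydrophobic molecules. It is not related in sequence to most other apolipoproteins, although it travels with high-density lipoprotein, and it binds arachidonic acid, progesterone and other lipids. Fibroblasts and glial cells are well-known sources of it, and its transcript is known to rise when cells stop dividing and under oxidative stress. In whole muscle the RNA comes from fibres, fibroblasts, fat cells, vessels, nerves and blood together, so a difference in the number of cells that express a gene and a difference in RNA per cell cannot be told apart.

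The files hold expected counts, which are estimates of the reads that came from each gene, and they were scaled here to CPM, in which a gene's count is divided by the library's total, corrected by edgeR's TMM factor, and multiplied by 1000000. The summed counts ranged from 8821259 to 24761846 per library, and APOD took from 43 to 1162 of them. The 10 largest genes of a library took from 27.4% to 48.95% of its counts. Transcripts of liver cells were found in the libraries of PUL pigs 1 to 5, where ALB lay between 7.67 and 920 CPM, while no other library exceeded 4.27 CPM. Fold changes between breeds are given as PL over PUL, and a negative log2 fold change stands for a higher level in PUL.

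In S, APOD was higher in every PUL pig than in every PL pig. The PUL S libraries had a lowest value of 11.97, a median of 17.3 and a highest value of 28.8 CPM. The PL S libraries had 5.07, 6.33 and 10.15 CPM. The groups did not overlap, and the lowest PUL pig (pig 3) lay above the highest PL pig (pig 10). The mean of PUL was 18.9 ± 6.82 CPM (SD, n = 8), that of PL was 6.97 ± 1.89 CPM (SD, n = 8), and their ratio was 2.71. The fitted log2 fold change of PL over PUL was -1.43 (standard error 0.23). The separation was found for 4 of 10687 genes with PUL above PL (0.0374%), which were APOD, TRNAU1AP and 2 IDs without a symbol. This count uses the contrast by which APOD was chosen, so nothing is read from it. No gene of S passed edgeR's quasi-likelihood test at an adjusted p of 0.05 and a fold change of 1.3 (0%), while 1252 had an unadjusted p under 0.05 and DESeq2 called 103.

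In LD, the breeds overlapped, and 1 library of each breed stood apart. The PUL LD libraries had a lowest value of 6.21, a median of 10.0 and a highest value of 43.0 CPM. The PL LD libraries had 5.43, 7.68 and 16.8 CPM. Only pig 2 of PUL, which had the highest APOD of all 32 libraries, lay above every PL pig, although 7 of the 8 PUL pigs lay above the PL median. The mean of PUL was 14.3 ± 11.9 CPM (SD, n = 8) and that of PL was 8.34 ± 3.57 CPM (SD, n = 8). Without pig 2 the PUL mean was 10.18 ± 2.78 CPM (SD, n = 7), and without pig 14 the PL mean was 7.13 ± 1.15 CPM (SD, n = 7). The fitted log2 fold change of PL over PUL was -0.78 (standard error 0.36), and it was -0.28 without pig 2 and -1.02 without pig 14, so that single libraries decided its size. No gene had every PUL library above every PL library in LD (0%), and none passed the threshold of edgeR's test (0%), although 772 had an unadjusted p under 0.05 and DESeq2 called 19.

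**Figure D1:**
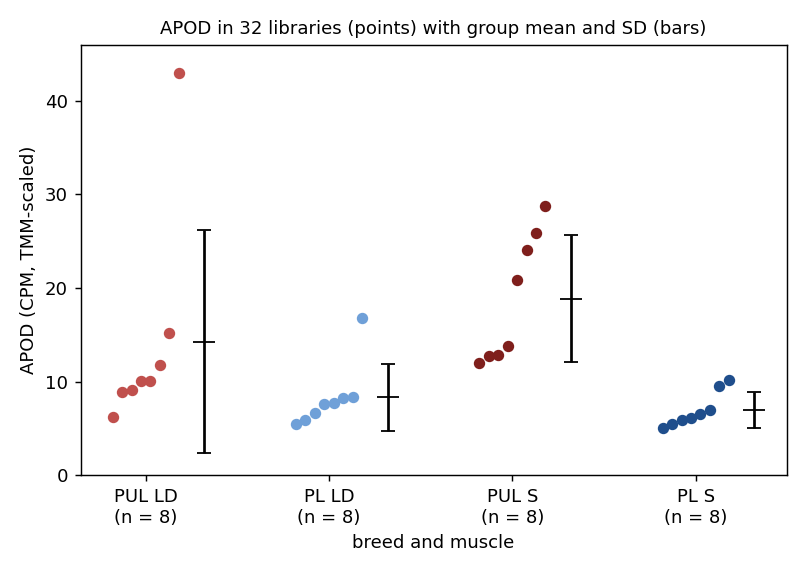
APOD in CPM (y axis) in each of the 32 libraries (points, sorted within a group), with the mean and SD of each group (bars), by breed and muscle (x axis). The 8 PUL S libraries all lie above the highest PL S library at 10.15 CPM, while in LD a single PUL library, at 43.0 CPM, lies above every PL library.

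The counting error of a single library differed with its APOD count. With the Wilson interval at 95%, which covers counting error only, the highest library (PUL LD, pig 2) lay between 40.6 and 45.6 CPM. The lowest one (PL S, pig 8) rested on 43 counts and lay between 3.76 and 6.82 CPM. The lowest PUL S library (pig 3) lay between 10.22 and 14.03 CPM and the highest PL S library (pig 10) between 8.92 and 11.6 CPM. The intervals of these neighbouring libraries therefore overlapped, although their values did not.

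The order of the 4 groups by median was PUL S, PUL LD, PL LD and PL S. Each neighbouring pair overlapped (PUL S with PUL LD, PUL LD with PL LD, and PL LD with PL S), so the order of these neighbours is not shown beyond their spread. Of the PUL S libraries, 4 of 8 lay above every PL LD library, and none lay above every PUL LD library, because of pig 2. Of the PUL LD libraries, 3 of 8 lay above every PL S library. Averaged over both muscles of a pig, APOD ranged from 10.8 to 31.9 CPM in PUL and from 5.25 to 11.4 CPM in PL, and the lowest PUL pig lay below the highest PL pig.

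Because both muscles came from the same animals, S and LD could be compared within each pig. In PUL, APOD was higher in S than in LD in 7 of 8 pigs. The largest increases were those of pig 1, from 6.21 to 25.9 CPM, and of pig 5, from 10.05 to 28.8 CPM. Pig 16 went from 15.2 to 24.1 CPM. The exception was pig 2, whose APOD went from 43.0 CPM in LD to 20.9 CPM in S. The remaining increases were smaller. In pig 17 the values were 9.11 and 13.8 CPM, and in pig 4 they were 8.86 and 12.8 CPM. In pig 3 they were 10.03 and 11.97 CPM, and in pig 13 they were 11.8 and 12.8 CPM. The ratio of S to LD had a median of 1.48 over the 8 PUL pigs. In these PUL pigs, 5.55% of the 10771 tested genes were higher in S in at least 7 pigs.

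In PL, APOD was higher in S than in LD in 3 of 8 pigs and the values of the muscles lay close together in most animals. Pig 7 had 5.95 CPM in LD and 6.58 CPM in S. Pig 10 had 8.22 and 10.15 CPM, and pig 12 had 8.37 and 9.58 CPM. These were the pigs with more APOD in S. In the other direction, pig 14 went from 16.8 CPM in LD to 6.09 CPM in S, a ratio of 0.363. The pairs of pig 8 (5.43 and 5.07 CPM), pig 9 (6.61 and 5.92 CPM), pig 15 (7.73 and 6.98 CPM) and pig 18 (7.64 and 5.42 CPM) differed less. LD was above S in at least 5 of the PL pigs for 37.6% of the 10680 tested genes.

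**Figure D2:**
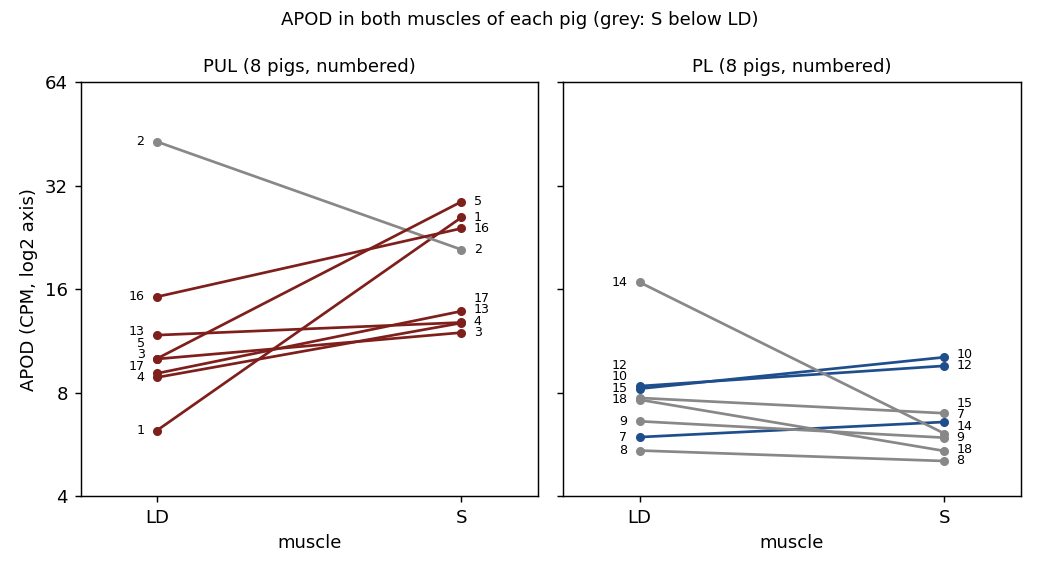
APOD in CPM on a log2 axis (y axis) in LD and S (x axis) of the 8 PUL pigs (left) and the 8 PL pigs (right), each line being 1 numbered pig. Coloured lines go up from LD to S (7 of 8 in PUL, 3 of 8 in PL) and grey lines go down, with pig 2 of PUL falling from 43.0 to 20.9 CPM and pig 14 of PL from 16.8 to 6.09 CPM.

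The muscle contrast did not pass the threshold in either breed. In PUL, the log2 fold change of S over LD was 0.41 (standard error 0.35), with an adjusted p of 0.989 by edgeR's quasi-likelihood method, and 6 of 10771 genes were called (0.0557%). With the pig as a block it was 0.60 (standard error 0.28), with an adjusted p of 0.603, and 7 genes were called (0.065%). Without the LD library of pig 2 it was 0.91 (standard error 0.23), with an adjusted p of 0.458, so this library moved the value by more than any other. The PUL S libraries also entered the breed difference that chose APOD, so this contrast is not wholly independent of the choice. In PL, the log2 fold change was -0.25 (standard error 0.23), with an adjusted p of 0.99997, and -0.02 without the LD library of pig 14, which carried most of it. No gene was called in PL, with or without the pig as a block (0% in both), by edgeR or by DESeq2, and 264 genes had an unadjusted p under 0.05. In the fit of both breeds with the pig as a block, the log2 fold change of S over LD was 0.79 lower in PL than in PUL (-0.79, standard error 0.37), a value that shares its libraries with the breed difference in S and is given without a test.

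**Figure D3:**
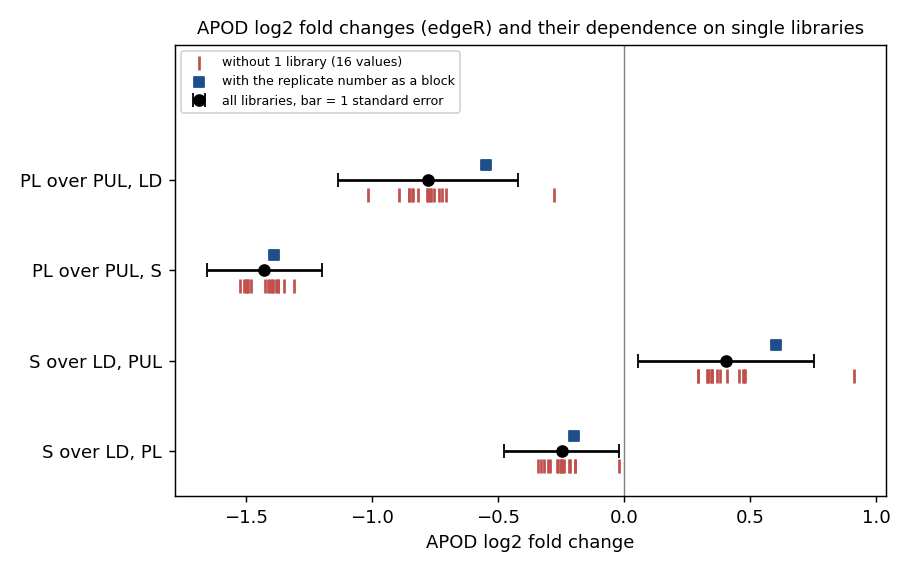
APOD log2 fold change (x axis) for each comparison (y axis), with all libraries (black points, bars of 1 standard error), without each library in turn (red marks, 16 per comparison) and with a block for the replicate number (blue squares). The value for S between the breeds stays between -1.52 and -1.31 when a library is left out, while that for LD ranges from -1.02 to -0.28.

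The level of APOD in one muscle of a pig was not shown to follow its level in the other. Over the 8 PUL pigs, Pearson's r between log2(CPM + 0.5) in LD and in S was 0.13 (exact permutation test of the pairings, two-sided, p = 0.823, adjusted p = 0.823 over 4 coefficients), and Spearman's rho was 0.12 (p = 0.793 by the same exact test, adjusted p = 0.823). Without pigs 1 and 2, which lay farthest from the median of LD, r was 0.45 (n = 6). Over the 8 PL pigs, r was 0.16 (exact permutation test, p = 0.617, adjusted p = 0.823) and rho was 0.60 (exact permutation test, p = 0.132, adjusted p = 0.529). Without pigs 8 and 14, r was 0.60 (n = 6). With 8 pigs per breed, correlations of this size cannot be told from 0.

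APOD reads fell on 4 transcripts of the annotation, and 1 of them held most of the reads in every group. ENSSSCT00000012943 held 78.6% of the APOD counts summed over all libraries and ENSSSCT00000036023 held 20.4%. ENSSSCT00000036048 held 0.748%, in 4 libraries, and ENSSSCT00000033009 held 0.279%, in 10 libraries. The share of the main transcript was 76.4% ± 9.13 in PUL LD, 80.2% ± 5.73 in PL LD, 82.7% ± 6.19 in PUL S and 78.6% ± 10.98 in PL S (SD, n = 8 each). It ranged from 60.8% to 93.5% over single libraries of all groups, and the ranges of the groups overlapped, so the breeds were not separated by transcript. One PL LD library had 23.1% of its APOD counts on ENSSSCT00000036048, which no PUL LD library held. Reads that match several transcripts are divided among them by estimation, which makes the share of the minor transcripts less certain than the gene's total.

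The genes that varied with APOD among pigs of the same breed and muscle were sought over all 32 libraries after the mean of each group had been removed, so that the breed difference had no part in the result. These correlations across libraries are descriptions. Over 11562 other genes the median r with APOD was 0.01, 422 genes had an r above 0.5 (3.65%) and 451 an r below -0.5 (3.90%). The libraries share depth and composition, and APOD itself had an r of 0.08 with the total count, -0.40 with the share of the 10 largest genes and 0.50 with the number of genes that had a count. Without the LD library of PUL pig 2, 303 genes had an r above 0.5 and 195 an r below -0.5.

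The 10 genes with a symbol that were most like APOD were TMEM260, SLC35G2, GATM, ENPEP, LVRN, MBNL3, RNF125, DAB2, TGFBR1 and ARMC1, with r from 0.66 to 0.72. One ID without a symbol ranked among them. All of them had a positive r within each of the 4 groups. They were picked by r over these same libraries, so this is no independent result. TGFBR1, the type I receptor of transforming growth factor beta, had r of 0.59 in PUL LD, 0.75 in PL LD, 0.89 in PUL S and 0.60 in PL S. DAB2, an endocytic adaptor protein, had r of 0.51, 0.88, 0.77 and 0.83 in the same order. Its level was low, with group means between 0.792 and 1.2 CPM and a lowest value of 0.143 CPM in PUL LD, so its r rests on few reads. These genes, DAB2 and TGFBR1, ranked first and second among genes with a symbol when the LD library of PUL pig 2 was left out, with r of 0.70 and 0.67. By contrast TMEM260, which ranked first among genes with a symbol with all libraries (r = 0.72), was ranked 38 without that library (r = 0.60).

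GATM, which encodes the enzyme that makes guanidinoacetate for creatine synthesis, had an r of 0.71. Without the LD library of PUL pig 2 its r was 0.59, rank 53 among genes with a symbol. The breed difference of GATM had the same sign as that of APOD. In S it had a median of 3.14 CPM (lowest 0.694, highest 48.8) in PUL and of 1.73 CPM (lowest 0.353, highest 2.83) in PL. In LD it had a median of 2.49 CPM (lowest 1.70, highest 31.5) in PUL and of 1.46 CPM (lowest 1.05, highest 5.92) in PL. The groups overlapped in both muscles, and the highest LD value of PUL was that of pig 2, as for APOD. The log2 fold change of GATM for PL over PUL was -1.33 (standard error 0.65) for LD and -2.57 (standard error 0.73) for S. ENPEP and LVRN both encode membrane aminopeptidases and had r of 0.70 and 0.69. ENPEP cuts angiotensin II. Its group means lay between 2.48 and 3.84 CPM and its medians between 1.45 CPM in PUL S and 3.18 CPM in PL S. The highest mean, in PUL S, came with the lowest median and with a highest library of 14.6 CPM. SLC35G2 went the other way between breeds, with means of 1.04 CPM in PUL LD and 1.18 CPM in PUL S against 2.35 and 2.39 CPM in PL. Its r with APOD within groups was nonetheless 0.72, and 0.61 without the LD library of PUL pig 2. Its lowest values were 0.0495 CPM in PUL LD and 0.157 CPM in PUL S, so this r also rests on few reads.

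The 5 genes with the lowest r were POMGNT1 (-0.77), DYRK1B (-0.76), JPT2 (-0.76), PCID2 (-0.72) and PICK1 (-0.71), and 2 IDs without a symbol ranked among them. All 5 had a negative r within each group, which again is no independent result, since r over these libraries chose them. POMGNT1 encodes a glycosyltransferase that completes the sugar chains of dystroglycan, and its loss is known to cause muscular dystrophy. It had 32.02 CPM in the LD library of PUL pig 2, the lowest of its group, where the median was 78.2 CPM. DYRK1B encodes a kinase that is abundant in skeletal muscle and is linked to cell cycle arrest. JPT2 had the lowest r of all genes with a symbol when that library was left out, at -0.68.

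**Figure D4:**
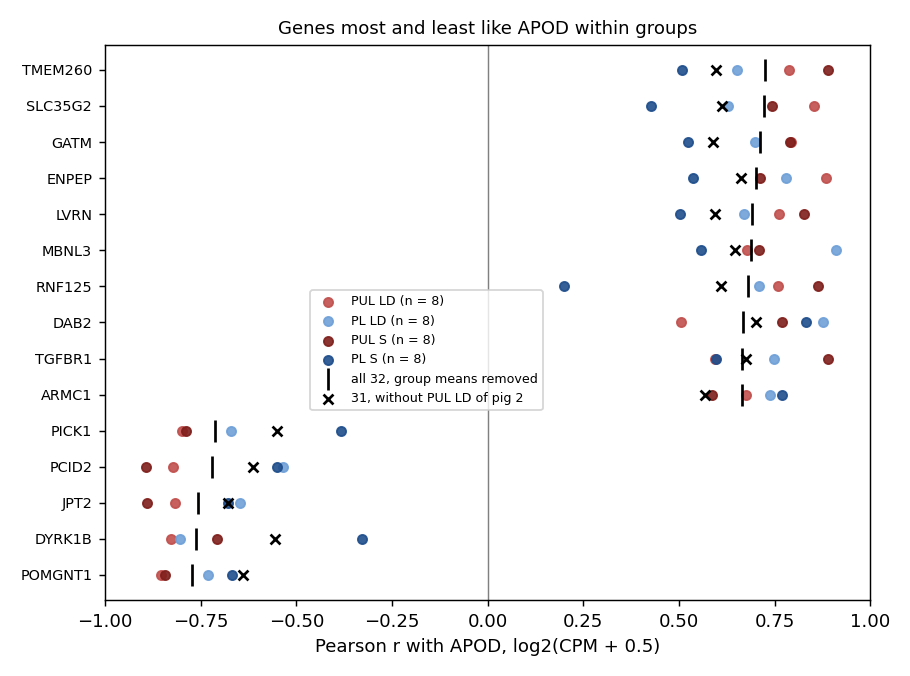
Pearson's r with APOD (x axis) of the 10 genes with the highest r and the 5 with the lowest r among genes with a symbol (y axis), within each group of 8 libraries (coloured points), over all 32 libraries with group means removed (black bars) and without the LD library of PUL pig 2 (crosses). The first 10 genes have r from 0.66 to 0.72 and the last 5 from -0.77 to -0.71 over all 32 libraries, and no point lies on the other side of 0. The genes were chosen by r over these same libraries, so the shared sign is no independent result.

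Among the markers of cell types, those of fibroblasts had a high r with APOD in both PL groups, while their median r was near 0 in both PUL groups. In PL LD, all 19 fibroblast and matrix genes compared had a positive r with APOD, with a median of 0.77, where the median of all genes was -0.02. In PL S, 16 of 19 had a positive r and the median was 0.52, where that of all genes was -0.01. In PUL LD, 5 of 19 had a positive r and the median was -0.11, and in PUL S the numbers were 11 of 19 and 0.03. In PL LD, pig 14 had both the highest APOD and the highest summed level of these genes, at 6879 CPM. Without this library the median r in PL LD was 0.61, with 16 of 19 genes positive. The difference between the breeds was not tested. COL3A1, a chain of fibrillar collagen, had r of 0.86 in PL LD and 0.80 in PL S, against -0.16 in PUL LD and -0.13 in PUL S. DCN, which encodes the proteoglycan decorin, had r of 0.81 and 0.60 in PL and of -0.06 and 0.28 in PUL. LUM, the gene of lumican, had r of 0.78 and 0.68 in PL and of -0.08 and 0.21 in PUL. COL3A1, DCN and LUM were singled out after their values were seen. The members with a negative r in PL S were FMOD (-0.22), FBN1 (-0.04) and COL5A1 (-0.03). In PL LD without pig 14 they were COL5A1 (-0.26), PI16 (-0.20) and FMOD (-0.04).

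The fitted breed values of these fibroblast markers had the opposite sign to that of APOD, without passing the test. In S, 18 of the 19 tested genes had a positive log2 fold change of PL over PUL, with a median of 0.70, and in LD all 18 did, with a median of 0.95. The median over all genes was 0.02 in S and 0.01 in LD. Their summed level in S lay between 187 and 2834 CPM in PUL and between 1437 and 6226 CPM in PL. These ranges overlapped. The PUL S libraries of pigs 13, 16 and 17 had 2834, 2168 and 2767 CPM, around the PL S median of 2471 CPM, while those of pigs 1 to 5 had 187 to 1349 CPM. The lowest summed level of all libraries was that of PUL pig 2 in S, which had 20.9 CPM of APOD.

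Of the macrophage and blood genes, MRC1, PTPRC and LYZ had an r above 0.5 over all 32 libraries and are given by group, with no test of a difference between breeds. MRC1, a receptor of tissue macrophages, had r of 0.83 in PL LD and 0.76 in PL S, against 0.39 in PUL LD and 0.32 in PUL S. PTPRC, the common leukocyte antigen, had r of 0.79 and 0.90 in PL and of 0.45 and 0.26 in PUL. LYZ, which encodes lysozyme, had r of 0.89 and 0.53 in PL and of 0.50 and 0.13 in PUL. The list of macrophage and blood genes had a median r of 0.81 in PL LD, 0.51 in PL S, 0.34 in PUL LD and 0.22 in PUL S. Without pig 14 the value in PL LD was 0.42, and without pig 2 the value in PUL LD was -0.06. The red blood cell gene HBB had r of -0.37 in PL LD and -0.50 in PL S, and CD14, a receptor of monocytes, had an r of 0.68 in PL LD and -0.42 in PL S, so the members of the list did not share one sign. HBB and CD14 were named after their values were seen.

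Liver transcripts had a positive median r with APOD in PUL LD, PUL S and PL LD, which in PUL LD depended on pig 2. In PUL S, all 20 hepatocyte genes compared had a positive r with APOD, with a median of 0.55, and without pig 5, in which their sum was highest (1870 CPM), the median was 0.26. In PUL LD, 19 of 20 had a positive r with a median of 0.28, which became -0.41 without pig 2, when 1 of 20 was positive. In PL LD, where these transcripts were low, 13 of 19 had a positive r with a median of 0.52, which was 0.29 without pig 14, and in PL S the median was -0.07. The summed level of the 26 hepatocyte genes ranged from 33.6 to 1870 CPM in PUL S and from 13.5 to 40.3 CPM in PL S. The PUL pigs whose libraries held almost no ALB were pigs 13, 16 and 17, with at most 0.393 CPM in either muscle. Their S libraries had 12.8, 24.1 and 13.8 CPM of APOD, each above the highest PL S library. APOD was chosen by this separation in S, so nothing is read from it. With PUL pigs 1 to 5 left out, the log2 fold change of APOD for PL over PUL was -1.27 (standard error 0.25) for S and -0.54 (standard error 0.31) for LD. The part of liver transcripts in the breed difference was not tested.

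The adipocyte, skeletal muscle and fast fibre lists had a negative median r over all 32 libraries. The 10 adipocyte genes had a median r of -0.17 over all 32 libraries, with 2 of 10 above 0. The summed level of the 13 adipocyte genes with an ID overlapped between breeds, with a range of 1405 to 3664 CPM in PUL S and 1684 to 3083 CPM in PL S. Most of this sum was GPD1, with means of 2348 CPM in PUL S and 2211 CPM in PL S, and ADIPOQ, LEP and FABP4 had no ID. The sum is therefore no measure of fat cells. The 10 skeletal muscle genes had a median r of -0.38, and ACTA1, the actin of muscle fibres, had -0.56. The 7 fast fibre genes had a median r of -0.36, and none was above 0. The LD library of PUL pig 2 had the lowest summed level of skeletal muscle genes of all libraries, at 59559 CPM. Without it, the median r of the skeletal muscle list was -0.20 and that of the fast fibre list -0.14. Within PUL LD alone the sign turned, from -0.33 to 0.21 for the skeletal muscle list and from -0.24 to 0.63 for the fast fibre list. In that library the hepatocyte sum was the second highest of the 32, while its fibroblast sum ranked 27. The part of this composition in its APOD value was not tested. Nerve sheath genes, which glial cells of nerves express, had a median r of 0.01, and L1CAM among them had -0.54. Of the endothelial genes, TEK (0.56) and CAV1 (0.55) had an r above 0.5, while 8 of 12 genes were above 0 and the list had a median of 0.19, or 0.05 without the LD library of PUL pig 2. Smooth muscle and pericyte genes had a median of -0.01 and slow fibre genes of 0.02.

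**Figure D5:**
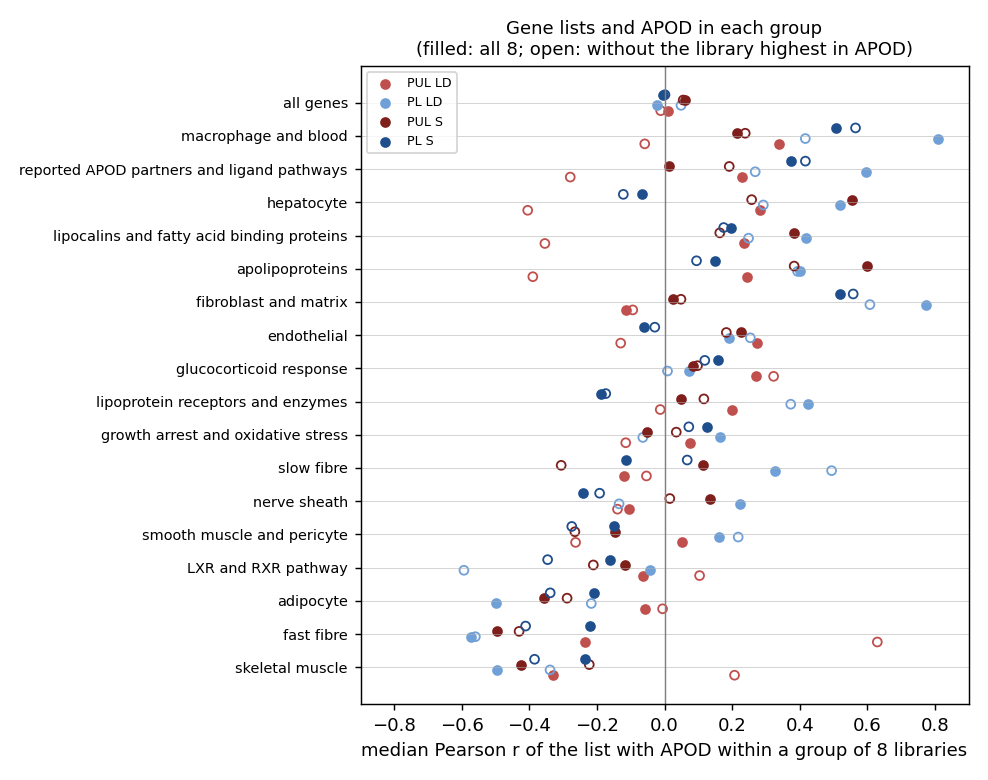
Median Pearson's r with APOD (x axis) of each gene list and of all genes (y axis) within each group of 8 libraries (filled points) and without the library with the highest APOD of that group (open points). The fibroblast and matrix list lies at 0.77 and 0.52 in PL and at -0.11 and 0.03 in PUL, and the PUL LD values of several lists change sign when pig 2 is left out.

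The liver X receptors are nuclear receptors that are activated by oxysterols, pair with retinoid X receptors and switch on genes of cholesterol efflux and lipid synthesis. NR1H3, the gene of liver X receptor alpha, had an r of 0.13 with APOD and of 0.02 without the LD library of PUL pig 2. Its breed difference had the sign of that of APOD, with log2 fold changes of -0.14 (standard error 0.15) for LD and -0.63 (standard error 0.16) for S. NR1H2, the gene of the beta receptor, and RXRB, one of its partners, had r of -0.55 and -0.58. MYLIP, a target that marks the LDL receptor for degradation, had an r of 0.52, and 0.40 without that library. Over the 11 genes of this list the median r was -0.15, and 0.02 without that library. In S, all 11 had a negative log2 fold change of PL over PUL, with a median of -0.30. LIPE, the hormone-sensitive lipase of fat cells, had an r of -0.01 with APOD, and -0.29 without the LD library of PUL pig 2, although its log2 fold change between breeds was -0.63 (standard error 0.36) for LD and -1.34 (standard error 0.35) for S. LIPE and NR1H3 are genes that the study groups with APOD by their breed difference, so their agreement in direction is no independent result.

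Among proteins of related function, the other apolipoproteins had a median r of 0.22, with 8 of 9 above 0. In PUL S their median was 0.60, and 0.38 without pig 5. Several of them are liver transcripts that the hepatocyte list also holds. The lipocalins and fatty acid binding proteins had a median of 0.29, with 9 of 10 above 0. Of the lipoprotein receptors and enzymes, LIPC had an r of 0.58, at means of at most 0.682 CPM in a group, and the list had a median of 0.09. The genes of reported APOD partners and of the arachidonate and progesterone pathways had a median of 0.38, which was 0.18 without the LD library of PUL pig 2. The growth arrest and oxidative stress list, made of genes that respond to conditions under which APOD is known to rise, had a median of 0.06, and the glucocorticoid response list had 0.10. The median of all genes was 0.01.

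No gene of the 17 lists was called in a muscle contrast. Of the 209 different genes with an ID, 169 were tested in PUL and 151 in PL with edgeR. Of these, 13 and 11 had an unadjusted p under 0.05, beside 435 of all 10771 tested genes in PUL and 264 of all 10680 in PL. DESeq2 called none of the list genes, beside 19 genes over the whole table in PUL and 0 in PL. The 6 genes called in PUL belonged to no list. ZIC1, ZIC4, HOXC6 and MSS51 were lower in S than in LD, and HOXA7 and ENSSSCG00000016700 were higher. ZIC and HOX genes are transcription factors that record the position of a tissue along the body. They were named after their values were seen. In the breed contrasts, edgeR called 0 of the 155 list genes tested for LD and 0 of the 158 tested for S. For 27 of the list genes in each muscle the unadjusted p was under 0.05, beside 772 of all 10792 tested genes for LD and 1252 of all 10687 for S. DESeq2 called 5 list genes in LD and 8 in S, beside 19 and 103 over the whole table.

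In the RefSeq annotation of Sscrofa11.1, which is a later assembly than the one behind these counts, APOD lies between PPP1R2 and BDH1. Of the 5 genes on each side, 5 were tested in S. Their log2 fold changes of PL over PUL in S were 0.23 for LSG1 (standard error 0.17), -0.04 for FAM43A (standard error 0.27), 0.53 for BDH1 (standard error 0.28), 1.18 for DLG1 (standard error 0.32) and 0.45 for NCBP2 (standard error 0.26). The values of 4 of these 5 had the opposite sign to that of APOD, and that of FAM43A lay within its standard error of 0. Within groups their r with APOD lay between -0.49 and 0.28.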

How the data were processed

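Total RNA of whole muscle was freed of ribosomal RNA before library construction, by a kit that keeps no strand, so reads of overlapping genes cannot be told apart by strand. The submitters' processing notes name CASAVA 1.8.2, FastQC, Bowtie2, RSEM and the Sscrofa10.2 assembly (versions of Bowtie2 and RSEM are not given in the sources used here). The values that the authors deposited are RSEM expected counts per gene and per transcript, not normalized.

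The expected counts were rounded and fitted with edgeR 4.0.16 and limma 3.58.1 under R 4.3.3, by glmQLFit and glmQLFTest, TMM factors, filterByExpr by group, Benjamini-Hochberg adjustment, an adjusted p of at most 0.05 and a fold change of at least 1.3. Each fit held the 16 libraries of its comparison. DESeq2 1.42.0, RLE factors, library size alone, no filter, the replicate number as a block, all libraries in one fit and each library left out were alternatives. CPM values used TMM factors over all 32 libraries. For correlations, 0.5 CPM was added before log2. On simulated counts, the S over LD fit recovered 52% of genes changed 2-fold in PUL (10771 genes) and 53% in PL (10680 genes). Those fits called 146 genes in PUL and 143 in PL, while the fits of the data called 6 and 0. The rate at so few calls, or for a gene as variable as APOD, was not tested.

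LD and S of a number come from the same pig, by the labels' pig numbers. Deviations from the group mean correlated between both muscles by more than 0.1 in 6 of 8 PUL pigs and 5 of 8 PL pigs. For different pigs that share only a replicate number across breeds, this held in 6 of 8 pairs in LD and 2 of 8 in S. These counts alone therefore do not set the muscles of one pig apart. A pig's own S library was the best match of its LD library in 4 of 16 pigs, and r was -0.52 in PL pig 14. No 2 libraries of a group agreed within sampling noise (lowest chi-square per degree of freedom 35.5).

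Symbols came from a table of gene names and, for HP, from the study (11805 of 25322 IDs). APOD transcripts were the adjacent rows whose counts sum to the gene's within 2 counts. Genes named are those of the 10 highest and 5 lowest r with APOD, list members called in a muscle contrast or with an r beyond 0.5 (up to 4 per list), LIPE and NR1H3. The gene and the 17 lists were chosen with earlier results of these data known. All columns were matched to samples. The genome of Sscrofa10.2, APOD sequences, and the pigs' trait and qPCR values were not used here.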

Additional observations from a re-analysis of the deposited data

Results flagged for a closer look

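The highest APOD value of PUL LD, 43.0 CPM in pig 2, stood apart from the other 7 libraries of its group, since its gap to the next library took 0.756 of the group's range (critical value of Dixon's test 0.526 for 8 libraries). The highest value of PL LD, 16.8 CPM in pig 14, stood apart in the same way, with a gap of 0.741 of the range. Among the pigs of PL, the lowest log2 ratio of S to LD was also that of pig 14, at -1.39, with a gap of 0.555 of the range. The last value rests on the same LD library as the one before it. Chance flags about 1 in 20 groups, and 6 sets of 8 values were examined.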

How the results depend on the processing

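The direction of APOD was kept in all 4 comparisons under every alternative run. Without one library the log2 fold change ranged from -1.02 to -0.28 (breeds, LD), -1.52 to -1.31 (breeds, S), 0.29 to 0.91 (muscles, PUL) and -0.34 to -0.02 (muscles, PL). With library size alone the values were -1.06, -1.40, 0.16 and -0.17. With a block for the replicate number they were -0.55, -1.39, 0.60 and -0.20, and no call of APOD in a muscle contrast changed in the paired fit. The numbers across breeds belong to different pigs. With the block and one pig left out, APOD ranged from 0.40 to 0.82 in PUL and from -0.26 to -0.02 in PL.

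Counts of called genes moved more. Without a filter, 4 genes were called between breeds in LD, 4 in S and 17 between muscles in PUL, and DESeq2 called 19, 103 and 19. With all libraries in one fit the counts were 6, 70 and 10, and RLE factors gave 1 in S. With PUL pigs 1 to 5 left out, a choice made after seeing the data, they were 1, 1 and 0. Without one library they ranged from 0 to 1 in LD, 0 to 1 in S and 6 to 10 in PUL, and with the block from 3 to 15 in PUL. PL stayed at 0 throughout.

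The r between muscles ranged from -0.063 to 0.39 in PUL and from -0.042 to 0.72 in PL without one pig (exact permutation p = 0.0488, unadjusted, without pig 14), and was -0.061 in PL with library size alone. Of the 15 genes named by r, 4 were kept without PUL LD, 9 without PL LD, 8 without PUL S, 6 without PL S, 6 without the LD library of PUL pig 2, and 8 by Spearman's rho, the last 2 chosen after seeing the data. APOD counts of 43 to 1162 per library limit the precision of single values, and 8 pigs per group limit that of r.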
